A study of Homo sapiens with 38 samples.

Results

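The comparison described here asks what the loss of AGO1 does to cytoplasmic RNA in cells that have already lost AGO2. Its members are 6 RNA-seq libraries of 38 samples in the series, chosen by their titles: 3 cytoplasmic libraries of AGO1/2 knockout cells (genotype AGO1-/-, AGO2-/-) and 3 of AGO2 knockout cells (AGO2-/-). Both are HCT116, a human colon cancer line, and both carry the AGO2 deletion, so the groups differ by the AGO1 deletion. Each genotype is 1 gene-edited line made with GenCRISPR, so that the effect of AGO1 loss and a difference between the 2 lines cannot be told apart. The libraries are numbered by culture passage, 9, 10 and 11 for the AGO1/2 knockout and 8, 9 and 10 for the AGO2 knockout. The p-values therefore measure the spread between passages of a line, not between independently edited lines. AGO1 knockout cells (passages 6, 7 and 8), wild-type cells (27, 28 and 29) and AGO1/2/3 knockout cells (11, 12 and 14) served as reference groups, along with the nuclear fraction of the same lines.

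Argonaute proteins hold microRNAs and are led by them to partly complementary sites, most often in the 3′ untranslated region (3′ UTR) of an mRNA, where they recruit TNRC6 scaffold proteins and the deadenylation machinery, lowering translation and stability. Pairing depends chiefly on the seed, a short stretch near the 5′ end of the microRNA. Human cells have several Argonautes that share microRNAs, and AGO2 is the member known for slicing fully paired targets. When AGO1 and AGO2 are both missing, AGO3 and AGO4 are the Argonautes that remain.

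Most of the microRNAs used to sort 3′ UTRs are shown first, since the results below are read against their seeds. Of 16 names listed, 15 were found in RefSeq (GRCh38.p14), and the one without an entry is miR-124-3p. The sequences below are the mature forms with the seed (bases 2 to 8) in capitals. Those of the first group are known in colon epithelial cells, and the last 3 are typical of liver, muscle and brain and serve as a background. Also used, but not printed, are miR-192-5p, miR-27b-3p, miR-30a-5p and miR-103a-3p, which belong to the first group.
let-7a-5p: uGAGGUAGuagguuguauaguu
miR-17-5p: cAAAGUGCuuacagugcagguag
miR-19b-3p: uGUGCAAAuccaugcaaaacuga
miR-92a-3p: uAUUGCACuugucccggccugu
miR-21-5p: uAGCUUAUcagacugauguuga
miR-200b-3p: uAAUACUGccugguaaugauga
miR-200a-3p: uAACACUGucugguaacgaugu
miR-148a-3p: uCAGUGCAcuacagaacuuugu
miR-122-5p: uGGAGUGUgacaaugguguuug
miR-1-3p: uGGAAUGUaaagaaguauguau
miR-9-5p: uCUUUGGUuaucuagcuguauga

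AGO1 RNA was almost gone from the cytoplasm of AGO1/2 knockout cells, AGO2 and AGO4 RNA were higher, and AGO3 RNA did not pass the test. AGO1 (ENSG00000092847.14, GRCh38 chr1:35869808-35930532, plus strand) was at 12.5, 12.0 and 11.5 TPM in AGO2 knockout cells at passages 8, 9 and 10, and at 0.854, 1.01 and 0.901 TPM in AGO1/2 knockout cells at passages 9, 10 and 11. TPM is the share of transcripts, corrected for their length and scaled to a fixed total per library. All AGO1/2 knockout libraries lay below all AGO2 knockout libraries, and the mean was 7.67% of that in AGO2 knockout cells. The log2 fold change was -3.36 (SE 0.07, adjusted p = 9.0e-14 by edgeR's quasi-likelihood test with Benjamini-Hochberg adjustment), and the exact two-sided permutation test gave p = 0.1, the smallest that 3 libraries against 3 allow. Both coding transcripts of AGO1 were lower: AGO1-202 fell from 5.64 ± 0.345 to 0.266 ± 0.0224 TPM and AGO1-201 from 6.14 ± 0.0971 to 0.576 ± 0.0728 TPM (SD, n = 3). AGO1 was also low in AGO1 knockout cells, which keep AGO2, where AGO1 stood at 0.887 TPM against 12.9 TPM in wild-type cells.

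AGO2 RNA was still counted in AGO2 knockout cells. It was at 21.0, 16.6 and 18.1 TPM in AGO2 knockout cells and at 29.2, 28.6 and 28.9 TPM in AGO1/2 knockout cells, a log2 fold change of 0.98 (SE 0.07, edgeR adjusted p = 1.2e-07). The groups did not overlap, and both were below the wild-type mean of 36.0 TPM. A level of AGO2 RNA in these lines says nothing of AGO2 protein. AGO3 was at 9.98, 7.96 and 8.60 TPM in AGO2 knockout cells and at 9.0, 7.77 and 8.67 TPM in AGO1/2 knockout cells, and the ranges overlapped (log2 fold change 0.09, SE 0.07, edgeR adjusted p = 0.34). AGO4, the least abundant member, was at 0.927, 1.39 and 1.35 TPM against 1.64, 1.57 and 2.76 TPM (log2 fold change 0.90, SE 0.15, edgeR adjusted p = 2.2e-04). Per unit length, AGO3 was thus the most abundant remaining Argonaute RNA apart from the edited AGO2 RNA, and AGO4 reached 1.99 ± 0.667 TPM (SD, n = 3).

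**Figure D1:**
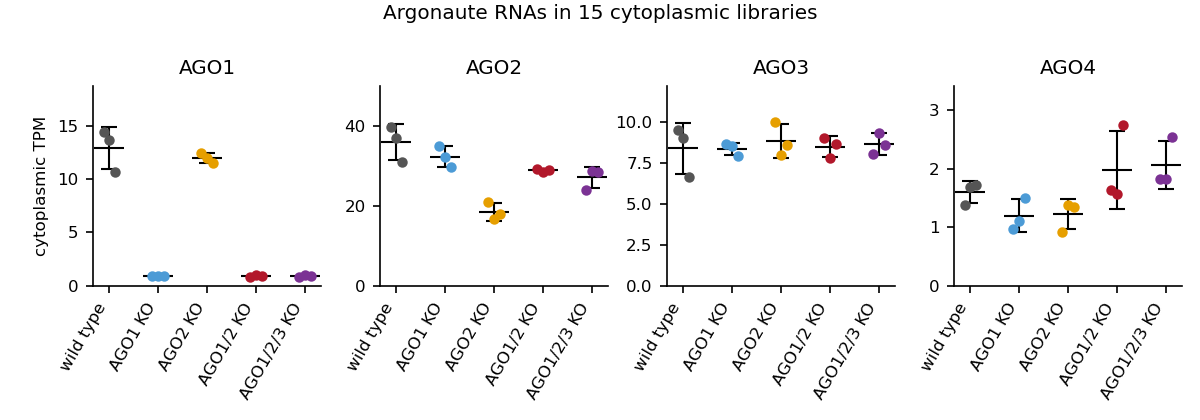
Cytoplasmic TPM (vertical axis, linear, from 0) of AGO1, AGO2, AGO3 and AGO4 in 15 libraries, 3 per genotype; points are libraries, the bar and whiskers are the mean and SD. AGO1 lies at or below 1.01 TPM in the AGO1/2 knockout against 11.5 TPM or more in the AGO2 knockout, AGO2 is higher in the AGO1/2 than in the AGO2 knockout, and AGO3 overlaps.

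The change spread far beyond AGO1. Of 17605 genes tested, 8065 (45.8%) had an edgeR adjusted p no higher than 0.05, the threshold for a call, 4063 (23.1%) higher and 4002 (22.7%) lower in AGO1/2 knockout cells. A change of at least 1 on the log2 scale was called for 1718 genes (9.76%), 1028 of them higher and 690 lower. The libraries of the groups did not overlap for 10013 genes (56.9%), with 4934 (28.0%) higher and 5079 (28.8%) lower. With limma on log2(TPM + 1) the split was 2147 higher and 5129 lower, and the median of all genes was -0.066 there and -0.15 on the log2(TPM + 0.1) scale, against -0.0012 in edgeR. On log2(TPM + 0.1) it was 2201 higher and 5299 lower. The share of TPM in mitochondrial mRNA, given further on, moved with this split, and its part in it was not tested. The estimated reads per library ran from 66451720 to 76115673 in AGO2 knockout and from 77510510 to 79731793 in AGO1/2 knockout cells, and the correlation of log2 values was at least 0.9945 within a line and at most 0.9816 between lines.

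The genes that rose most ranged from nearly silent to 9.80 TPM (TNFRSF6B) in AGO2 knockout cells. DCLK1, a microtubule-associated kinase, gave 3 reads in all in the 3 AGO2 knockout libraries and was at 9.01, 10.7 and 7.81 TPM in AGO1/2 knockout cells. That is a ratio of 5120 in reads scaled to library size, with a 95% counting interval of 1750 to 24800. TM4SF18, a membrane protein of the tetraspanin-like L6 family, gave 8 reads against 4.18, 6.41 and 5.23 TPM, a ratio of 337 with an interval of 171 to 782. The intervals cover counting error only. SLC2A3, which encodes the glucose transporter GLUT3, was at 0.350, 0.371 and 0.400 TPM in AGO2 knockout and at 9.59, 15.1 and 6.95 TPM in AGO1/2 knockout cells, a rise of 4.92 on the log2 scale (SE 0.32, edgeR adjusted p = 2.8e-08). VIM, the intermediate filament protein of mesenchymal cells, was at 0.935, 1.02 and 0.852 TPM and then at 11.2, 10.9 and 11.8 TPM, a rise of 3.80 (SE 0.15). The other genes among the 8 largest rises were RBM24, an RNA-binding splicing factor (3.69), CLIC3, a chloride intracellular channel protein (3.1), COL13A1, a transmembrane collagen (2.99), and TNFRSF6B, a decoy receptor (2.91), which overlaps RTEL1 so that reads of the pair may be shared. The rule that named these genes, and those that fell, required that the libraries of the lines not overlap.

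The genes that fell most had means of 5.58 to 42.7 TPM in AGO2 knockout cells and of at most 2.81 TPM in AGO1/2 knockout cells. SLC1A3, a glutamate transporter, was at 6.14, 5.32 and 5.28 TPM and then at 0.0282, 0.0152 and 0.0153 TPM, a log2 fold change of -8.19 (SE 0.30, edgeR adjusted p = 1.4e-10). ZNF704, a zinc finger protein, was at 8.77, 9.71 and 10.4 TPM against 0.0850, 0.0793 and 0.0698 TPM (-7.18, SE 0.19). MAL2, a protein of apical membrane traffic, was at 41.6, 41.2 and 39.8 TPM against 0.355, 0.306 and 0.386 TPM (-6.50, SE 0.13). ADGRF1, an adhesion G-protein-coupled receptor, fell by 5.94. LMAN1, a lectin that carries glycoproteins out of the endoplasmic reticulum, went from 17.8, 18.0 and 17.9 TPM to 0.796, 0.906 and 1.04 TPM (-4.52, SE 0.08), and RECQL, a DNA helicase, from 9.15, 9.22 and 8.79 TPM to 0.543, 0.370 and 0.586 TPM (-4.08, SE 0.08). SOX4, a transcription factor of progenitor cells, fell by 3.84 and S100A14, a calcium-binding protein of epithelia, by 3.75.

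The AGO1/2/3 knockout line, which also lacks AGO3, gives a further set of values for these genes. In AGO1/2/3 knockout cells DCLK1 stood at 5.64 ± 0.279 TPM, VIM at 13.1 ± 1.18 TPM, MAL2 at 0.418 ± 0.0121 TPM, LMAN1 at 0.879 ± 0.11 TPM and RECQL at 0.517 ± 0.0203 TPM (SD, n = 3), while AGO1 knockout and wild-type cells held LMAN1 at 16.6 and 18.3 TPM and RECQL at 11.5 and 11.8 TPM. The AGO1/2 and AGO1/2/3 knockouts share the AGO1 and AGO2 deletions, and whether one was edited from the other is not given in the sources used here.

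**Figure D2:**
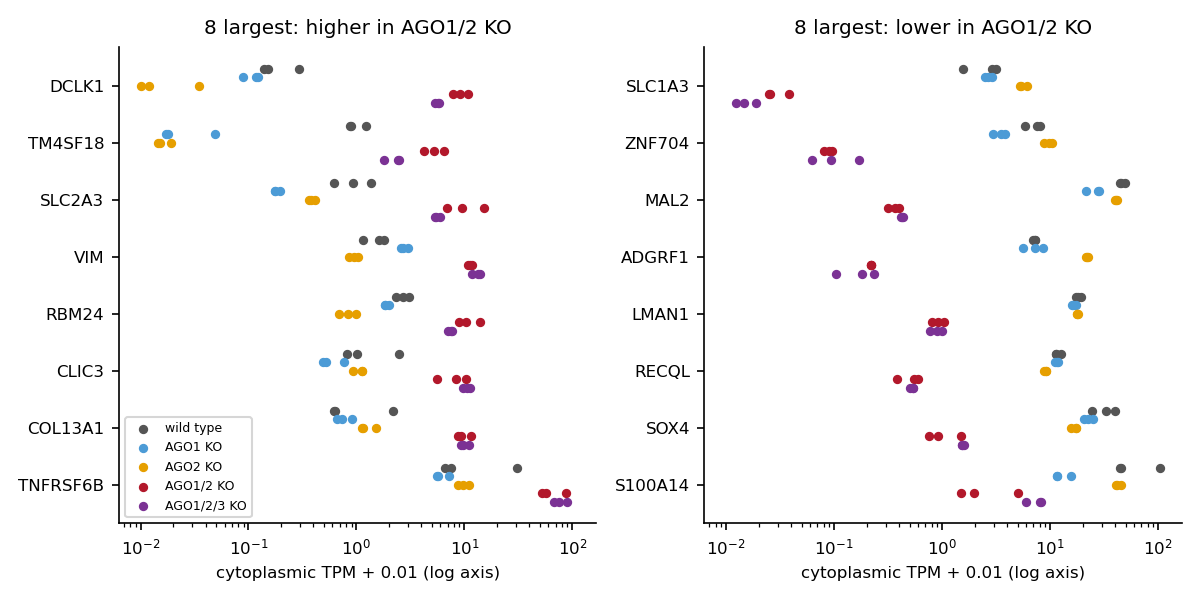
Cytoplasmic TPM plus 0.01 (horizontal, log axis) of the 8 genes with the largest rise (left) and the 8 with the largest fall (right) in AGO1/2 against AGO2 knockout cells; each point is 1 of 3 libraries per genotype, coloured by genotype. The AGO1/2 and AGO2 knockout points are apart for every gene shown, as for LMAN1 at means of 0.913 and 17.9 TPM.

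The most abundant RNAs with a change of at least 1 on the log2 scale included S100A10, TMSB4X and MT-ND3 among the rises and HSP90AB1, EPCAM and MYC among the falls. S100A10, the annexin A2 partner, was at 144, 133 and 115 TPM in AGO2 knockout cells and at 392, 401 and 394 TPM in AGO1/2 knockout cells (log2 fold change 1.76, SE 0.12). TMSB4X, which encodes the actin-sequestering thymosin beta 4, rose by 1.46, DCBLD2, a neuropilin-like receptor, by 1.27, ADIRF by 1.28 and S100A11 by 1.03. In the other direction HSP90AB1, a cytosolic HSP90 chaperone, was at 1084, 983 and 1011 TPM and then at 398.5, 324.4 and 422.5 TPM (-1.25, SE 0.11). EPCAM, the epithelial adhesion molecule, was at 139, 128 and 129 TPM and then at 42.1, 43.0 and 47.1 TPM (-1.39, SE 0.07). MYC, the growth-promoting transcription factor, was at 102, 89.0 and 101 TPM and then at 31.1, 29.6 and 36.5 TPM (-1.40, SE 0.08). FABP5, a fatty acid carrier, fell by 1.86 and CYC1, cytochrome c1 of the respiratory chain, by 1.10. HSPA1B went from 126 ± 19.3 to 46.6 ± 5.58 TPM (SD, n = 3), a value that is uncertain because its copy HSPA1A is near identical and shares reads, and its call was lost when passages 9 and 10 alone were compared (edgeR adjusted p = 0.107).

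Silencing factors other than the Argonautes were lower more often than higher in the cytoplasm. Of 21 genes of microRNA biogenesis and silencing, all tested, 3 were called higher, 11 lower and 7 not called, with a median log2 fold change of -0.17 beside -0.0012 for all genes tested. Of all genes tested 23.1% were called higher and 22.7% lower, which is the background for this and every list that follows. In nuclear RNA the same 21 genes had 6 called higher and 6 lower. The largest falls at a level above 1 TPM were of the HSP90 chaperones that load Argonautes, HSP90AB1 (given above) and HSP90AA1 (1112 ± 46.3 to 489 ± 47.1 TPM, log2 fold change -0.99), and of DIS3L2, the exonuclease of uridylated let-7 precursors (5.56 ± 0.121 to 3.21 ± 0.324 TPM, -0.69). PRKRA, a Dicer partner, rose by 0.59.

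Known targets of microRNAs rose more often than they fell for the miR-17 family and were more mixed for let-7 and miR-21. Of 18 classic miR-17 family targets 17 were tested, and 11 were called higher, 1 lower and 5 not called (median 0.41). SMAD7, an inhibitor of TGF-beta signaling, was at 0.552, 0.560 and 0.571 TPM in AGO2 knockout cells and at 2.13, 1.98 and 2.17 TPM in AGO1/2 knockout cells (log2 fold change 2.03, SE 0.10, edgeR adjusted p = 1.5e-09). ZBTB4, a repressor that binds methylated DNA, rose by 0.94, BMPR2, a BMP receptor, by 0.84, and TGFBR2, a TGF-beta receptor, by 0.81. ARID4B, a chromatin protein, was the member that fell (-0.49). On the TPM scale (limma on log2(TPM + 1)) the count was 7 higher and 3 lower.

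Of 22 classic let-7 targets 20 were tested, and 10 were called higher, 5 lower and 5 not called (median 0.27), the share of lower calls being near the 22.7% of all genes. HMGA2, a chromatin architectural protein with several let-7 sites, went from 53.5 ± 3.56 to 87.0 ± 11.6 TPM (SD, n = 3; log2 fold change 0.95, SE 0.10), and IGF2BP1, an RNA-binding protein, rose by 1.04 from a level near 0.078 TPM. MYC, which is on this list too, fell, and so did IGF1R, a growth factor receptor (0.979 ± 0.226 to 0.0631 ± 0.0360 TPM). On the TPM scale the let-7 count was 5 higher and 5 lower. Of 18 classic miR-21 targets, all tested, 8 were called higher and 7 lower (median -0.11), and on the TPM scale 5 were higher and 9 lower. TIMP3, an inhibitor of matrix proteases, rose by 3.43 from 0.0478 TPM, and RHOB, a small GTPase, went from 25.3, 23.7 and 22.3 TPM to 60.3, 58.1 and 66.1 TPM (log2 fold change 1.55, SE 0.14), whereas SATB1, a chromatin organizer, fell by 2.06 and NFIB, a nuclear factor, by 0.66.

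The seed sites in some of these genes are shown with their surroundings (GRCh38, read 5′ to 3′ on the strand of the mRNA), with the bases that pair to the seed, and an A opposite the first base where there is one, in capitals. For each microRNA they are the members called in each direction with the largest change. Members had to be at 1 TPM or more in the higher line and to hold a site in the 3′ UTR. Members on the chromosome whose lower stretch is described further on, MYC among them, were left out of this choice. The choice was made after the values were seen. One transcript per gene was searched, the coding one with the highest mean TPM, and in that of ZEB1 no miR-200b match was found. Sites of let-7, miR-17, miR-21 and miR-200b are each shown in a gene that rose and in one that fell, and the last is a miR-200a site in a gene that rose. The genes that fell are IGF2BP3 (-0.37), ARID4B (-0.49), NFIB (-0.66) and FHOD1 (-0.50), and the call of IGF2BP3 was lost when any of 4 libraries was left out.
HMGA2, chr12:65963294-65963323, plus strand, 3′ UTR: gggcgccaacgttcgatttCTACCTCAgca
IGF2BP3, chr7:23311792-23311821, minus strand, 3′ UTR: aacgtgcatttttactcaaCTACCTCAggt
SMAD7, chr18:48919997-48920026, minus strand, 3′ UTR: aagaaaaataaagaaaagatGCACTTTgct
ARID4B, chr1:235168498-235168524, minus strand, 3′ UTR: cagcaggacttgctaaaGCACTTTgca
RHOB, chr2:20449362-20449391, plus strand, 3′ UTR: gatgtttacataaaagttctATAAGCTgtg
NFIB, chr9:14087857-14087886, minus strand, 3′ UTR: atgccttaatatttgcatgATAAGCTAgtt
CFL2, chr14:34712473-34712502, minus strand, 3′ UTR: tcagatggtcaacttttttCAGTATTAttt
FHOD1, chr16:67229504-67229533, minus strand, 3′ UTR: ccaggagccatgccttgagCAGTATTAgcc
TGFB2, chr1:218441452-218441481, plus strand, 3′ UTR: taagagagccttggttcatCAGTGTTAaaa
HMGA2 held 4 let-7 sites in this 3′ UTR. Of the let-7 targets 14 of 19 with a 3′ UTR held a let-7 7-mer, of which 8 were called higher and 3 lower. Of the miR-17 targets 15 of 17 held the miR-17 7-mer (9 higher, 1 lower), and of the miR-21 targets 15 of 18 held the miR-21 7-mer (5 higher, 7 lower). Members without a match were few and had the higher median in each of these lists, at 0.30 against 0.27 for let-7 (5 genes), 0.50 against 0.38 for miR-17 (2 genes) and 0.39 against -0.32 for miR-21 (3 genes).

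Across all 13369 protein-coding genes tested that have a 3′ UTR, those with more seed matches were shifted upward by a small amount. A match was the 7-base reverse complement of a seed on the mRNA strand, for example CTACCTC for let-7a, GCACTTT for miR-17, TTTGCAC for miR-19b, GTGCAAT for miR-92a, ATAAGCT for miR-21, CAGTATT for miR-200b, CAGTGTT for miR-200a and TGCACTG for miR-148a. These occur in 9.35%, 20.3%, 13.0%, 10.4%, 7.94%, 15.5%, 17.2% and 13.3% of the 3′ UTRs, and the sites that share GCAC or TGCA can overlap. Over the 12 microRNAs of colon cells, the median log2 fold change was -0.049 for 5289 genes with no match, -0.0074 for 2791 with 1, 0.013 for 2819 with 2 to 3, 0.069 for 1870 with 4 to 7 and 0.13 for 600 with 8 or more. The share called higher went from 22.1% with no match to 39.8% with 8 or more, beside 26.6% of all these genes. The median 3′ UTR length went the same way, from 344 to 5799 nt, and its part in the trend was not tested. In AGO1 knockout against wild-type cells the medians ran in the opposite order, from 0.0020 with no match to -0.065 with 8 or more. In nuclear RNA of AGO1/2 against AGO2 knockout cells they were 0.088, 0.11, 0.13, 0.14 and 0.088, so that genes with 8 or more matches were level with those with none.

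By microRNA, genes with a 7-mer had medians of 0.099 for miR-19b (1739 genes), 0.074 for miR-148a (1784), 0.063 for miR-17 (2714), 0.055 for miR-92a (1396), 0.040 for let-7a (1250) and 0.016 for miR-21 (1062). The other colon microRNAs had 0.056 for miR-103a, 0.051 for miR-200a, 0.051 for miR-192, 0.050 for miR-200b, 0.039 for miR-30a and 0.031 for miR-27b. The background microRNAs gave 0.044 for miR-122, 0.044 for miR-1 and 0.053 for miR-9. Of the colon microRNAs, miR-19b, miR-148a, miR-17, miR-103a and miR-92a were above all of these background values, and the rest were not. This order changed among genes at 5 TPM or more in the higher line, where miR-122, miR-1 and miR-9 had 0.040, 0.045 and 0.054. There miR-103a (0.037) was below all of them, and miR-192 (0.069), miR-200b (0.060) and miR-200a (0.060) were above. The values of miR-19b (0.087), miR-148a (0.074), miR-17 (0.064) and miR-92a (0.056) stayed above. With the longer 8-mer match, which adds an A, the medians were 0.14 for miR-92a, 0.12 for miR-17, 0.11 for miR-19b, 0.11 for miR-21 and 0.041 for let-7a, beside 0.054, 0.060 and 0.069 for miR-122, miR-1 and miR-9. The 8-mer medians of miR-148a (0.10), miR-200b (0.10) and miR-103a (0.074) were also above those of the background microRNAs, and miR-200a was at 0.066. Those of let-7a, miR-30a (0.046), miR-192 (0.028) and miR-27b (0.010) were below. Among the 4457 genes with 3′ UTRs of 1652 nt or more, those with a miR-17 7-mer had a median of 0.081 and those without 0.030. For miR-19b the values were 0.11 and 0.025, for let-7a 0.061 and 0.050, and for miR-200b 0.068 and 0.048. These medians are descriptions of 1 pair of lines, and the shifts are small beside the quartiles of all genes tested, -0.33 and 0.35.

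**Figure D3:**
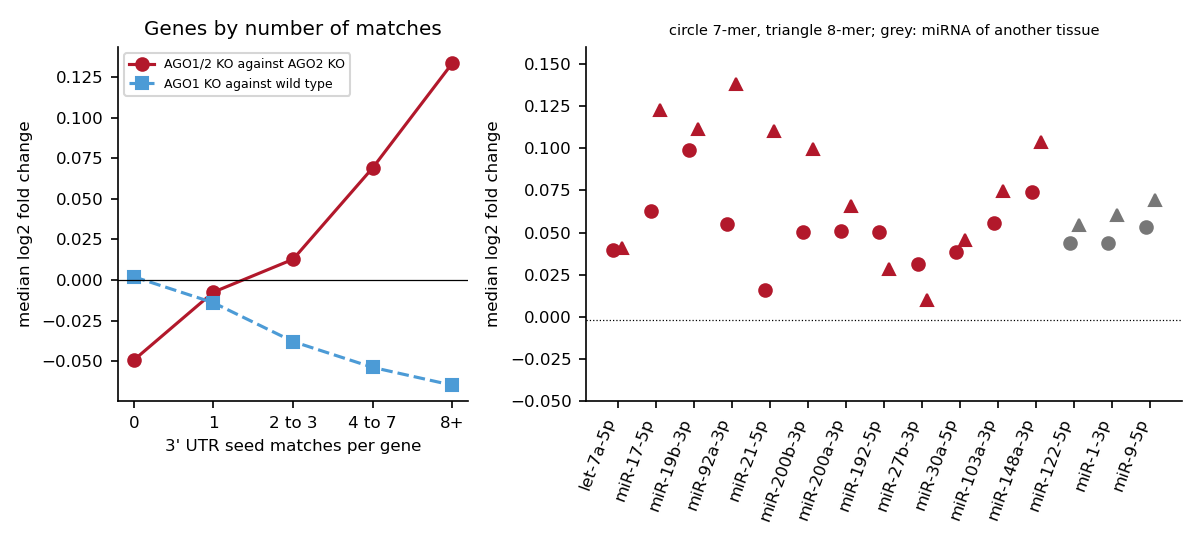
Left, median log2 fold change of genes (vertical) by the number of 3′ UTR 7-mer matches to 12 microRNAs of colon cells (horizontal) for AGO1/2 against AGO2 knockout (red circles) and AGO1 knockout against wild type (blue squares). Right, the median for genes with a 7-mer (circle) or 8-mer (triangle) of each microRNA, those of other tissues in grey, and the dotted line at the median of all genes with a 3′ UTR; the red medians on the left run from -0.049 to 0.13.

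In the cytoplasm most epithelial genes tested fell and several mesenchymal genes rose. Of 19 epithelial genes 15 were tested, and 11 were called lower, 1 higher and 3 not called, with a median of -0.66. VIL1, LGALS4, CEACAM5 and CEACAM6 were too low to test in both lines. GRHL2, an epithelial transcription factor, was at 0.819, 0.542 and 0.837 TPM in AGO2 knockout cells and gave no reads in the 3 AGO1/2 knockout libraries, at least 49.2-fold lower against a floor of 3 reads per library. CDH1, which encodes E-cadherin, was at 7.15, 7.04 and 8.03 TPM and then at 0.896, 0.681 and 1.78 TPM (log2 fold change -2.53, SE 0.26, edgeR adjusted p = 2.7e-06). ESRP1, an epithelial splicing factor, fell by 2.33 and CLDN7, a tight junction claudin, by 2.23. GRHL2 and ESRP1 are the 2 tested members on chromosome 8, and both lie in its lower stretch described further on. Simple-epithelial keratins were not among the falls, with KRT8 at 0.25 and not called and KRT18 at 0.35, a call that was lost on the TPM scales (limma adjusted p = 0.216 and 0.21) and without passage 9 or 10 of the AGO2 knockout. In nuclear RNA, where 54.4% of genes were called, the epithelial list had 3 called higher and 7 lower (median -0.22). Mean nuclear KRT18 went from 318 to 826 TPM and CDH1 from 17.4 to 4.15 TPM. In cytoplasmic RNA of AGO1 knockout against wild-type cells, where 12.4% of genes were called, the list had 6 called lower and 1 higher (median -0.19).

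Of 18 miR-200 targets and mesenchymal genes 16 were tested, and 10 were called higher, 2 lower and 4 not called (median 0.46). Values in the list ran from -1.99 to 3.80, and FHOD1 (-0.50) was among the members called lower. ZEB1, a repressor of epithelial genes and a classic miR-200 target, was at 1.17, 1.05 and 1.29 TPM in AGO2 knockout cells and at 5.50, 4.38 and 5.35 TPM in AGO1/2 knockout cells (log2 fold change 2.14, SE 0.09, edgeR adjusted p = 5.4e-10). TGFB2, a TGF-beta ligand, rose by 3.37 from 0.0837 to 1.04 TPM, TWIST1, a mesenchymal transcription factor, by 2.15 to 0.256 TPM, CFL2, an actin-severing cofilin, by 0.83, and VIM as given above. Of the members with a miR-200b 7-mer 5 of 10 were called higher and 2 lower, with a median of 0.34 against 2.14 for the 6 members without one. ZEB1 is counted among the 6, because only 1 transcript per gene was searched. The list also mixes miR-200 targets with mesenchymal genes, so these medians do not compare targets with and without sites. On the TPM scale the list still had 7 higher and 2 lower, and the epithelial list 10 lower and none higher. Of 16 markers of other cell types 5 were tested, and their summed level was 1.19 to 1.33 TPM in AGO2 knockout and 1.48 to 3.01 TPM in AGO1/2 knockout cells. LYZ, a lysozyme gene of myeloid and Paneth cells, rose to 1.2 ± 0.641 TPM (SD, n = 3) from 0.0222 TPM, and PDGFRB, of stromal cells, had 2 reads in AGO2 knockout cells and 0.0285 TPM in AGO1/2 knockout cells, a ratio of 26.0 with a 95% counting interval of 7.21 to 215. PTPRC, CD3E, DCN and COL1A2 were at 0 in all 6 libraries. In bulk RNA, fewer cells with a transcript and less of it per cell cannot be told apart.

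**Figure D4:**
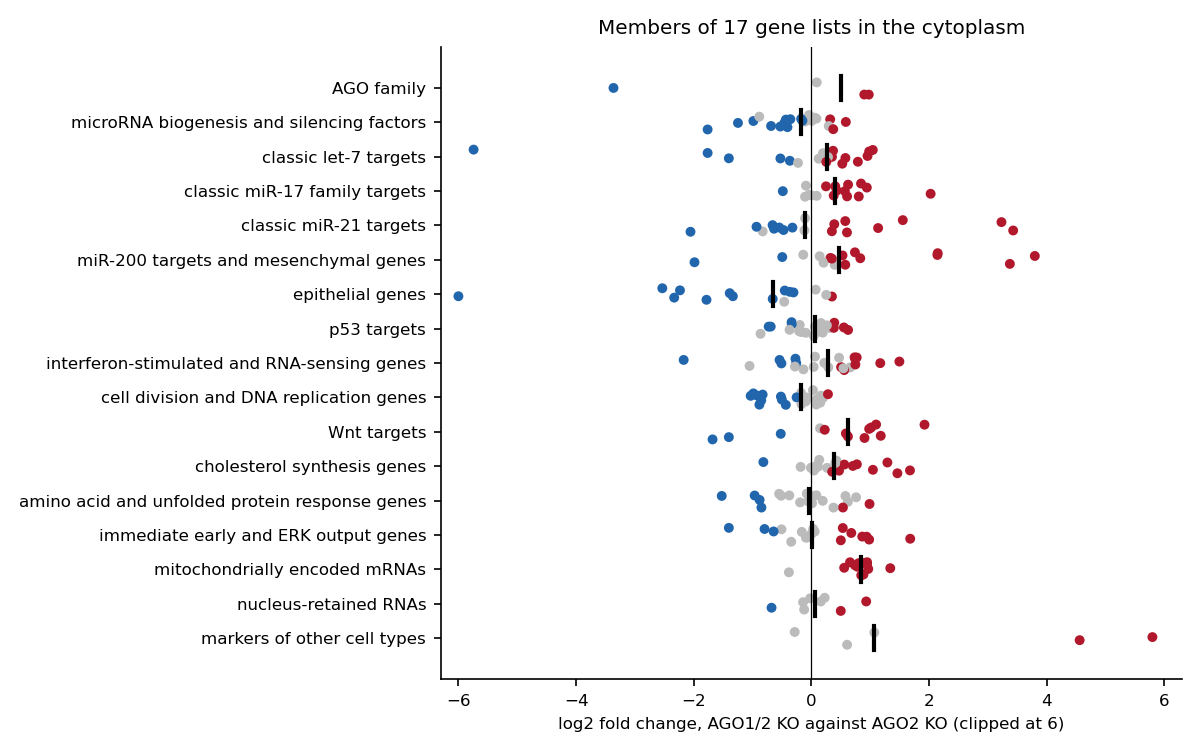
Log2 fold change, AGO1/2 against AGO2 knockout (horizontal, clipped at 6 in either direction), of each tested member of 17 gene lists (rows); red points were called higher, blue lower and grey not called in edgeR at an adjusted p of 0.05, and the black bar is the median of the list. Epithelial genes lie mostly left of 0 (median -0.66) and mitochondrially encoded mRNAs and miR-17 targets right of it (medians 0.85 and 0.41).

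Genes of signaling and metabolism moved in part. Of 13 tested Wnt targets (17 listed) 9 were called higher and 3 lower (median 0.62), with 23.1% and 22.7% of all genes as the background. SP5, a transcription factor induced by Wnt, rose by 1.92 and NOTUM, a secreted Wnt antagonist, from 1.67 ± 0.0506 to 3.14 ± 0.244 TPM, whereas MYC fell. Of 18 immediate early and ERK output genes 7 were called higher and 3 lower (median 0.02), and on the TPM scale the split turned to 3 higher and 7 lower. Among them FOSL1, an AP-1 subunit, was at 47.3, 32.3 and 33.9 TPM and then at 103, 124 and 87.9 TPM (log2 fold change 1.68, SE 0.17), and CCND1, cyclin D1, rose by 0.98. Of 20 cholesterol synthesis genes 9 were called higher and 1 lower (median 0.38). INSIG1, a sensor of the pathway, was at 14.2, 14.8 and 12.8 TPM and then at 42.8, 24.1 and 49.0 TPM (1.68, SE 0.18). STARD4, a sterol carrier, rose by 1.29. For both INSIG1 and STARD4 the passage 10 library of the AGO1/2 knockout was the lowest of its line.

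Of 25 cell division and DNA replication genes 10 were called lower and 1 higher (median -0.17). The replicative helicase subunits fell together: MCM2 went from 44.4 ± 2.89 to 19.2 ± 1.58 TPM (SD, n = 3; log2 fold change -1.03), MCM6 fell by 0.99, MCM7 by 0.92 and MCM5 by 0.88. In nuclear RNA of the same lines, where 54.4% of genes were called, these 4 had values from -0.17 to -0.12, none called, and 15 of the 25 genes were called higher and none lower. Of 23 p53 targets 4 were called higher and 4 lower (median 0.06), beside 23.1% and 22.7% of all genes, and on the TPM scale 1 was higher and 6 lower (median -0.11). The repair genes XPC and DDB2 were at -0.73 and -0.69 and CCNG1, a cyclin, at 0.55. CDKN1A, which encodes p21, had a value of 0.62 (edgeR adjusted p = 0.036) that was no longer called under 9 of the alternatives. Of 23 tested interferon-stimulated and RNA-sensing genes (25 listed) 8 were called higher and 5 lower (median 0.29). Values in the list ran from -2.17 to 1.5, with IFI27 at 1.5 and IFI6 at 0.77 among the rises. IFI6 was not called on the TPM scale, with the passage as a block (0.44, edgeR adjusted p = 0.0829) or with passages 9 and 10 only. On the TPM scale the interferon count was 2 higher and 5 lower. Of 20 tested amino acid and unfolded protein response genes 2 were called higher and 4 lower (median -0.04). DNAJB9, a chaperone of the endoplasmic reticulum, rose by 0.99, and ASNS, asparagine synthetase, had a value of -1.52 (edgeR adjusted p = 0.031) that was not called when any of 5 libraries was left out.

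Mitochondrial mRNAs were higher in the cytoplasmic fraction of AGO1/2 knockout cells. Of 13 mitochondrially encoded mRNAs 12 were called higher and none lower (median 0.85). MT-ND3, a complex I subunit, was at 3130, 3731 and 3150 TPM and then at 6942, 9430 and 5618 TPM (log2 fold change 1.34, SE 0.20), and MT-ND4 and MT-CO2 rose by 0.97 and 0.95. The 13 mRNAs together made up 8.14%, 9.06% and 8.34% of TPM in AGO2 knockout libraries and 12.9%, 15.8% and 10.7% in AGO1/2 knockout libraries. In nuclear RNA the same mRNAs were at 0.388% to 0.486% and 0.369% to 0.446%, and 8 of them were called lower and none higher (median -0.37). Of 8 tested RNAs listed as nucleus-retained 2 were called higher and 1 lower in the cytoplasm (median 0.07). OIP5-AS1 rose by 0.93 and NEAT1 fell by 0.68. In AGO2 knockout cells mean OIP5-AS1 was 23 TPM in the cytoplasm and 21.9 TPM in the nucleus, and NEAT1 was at 9.43 and 113 TPM. By these levels OIP5-AS1 was not nucleus-retained here. The part that the separation of mitochondria and nuclei had in these values was not tested. Mitochondrial ribosomal RNA stood apart in 1 library, at 745 TPM in the AGO1/2 knockout at passage 9 and at most 12.8 TPM in the other 5.

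One stretch of chromosome 8 was lower as a whole. Of its 594 tested genes 95 were called higher and 263 lower (44.3%, against the 22.7% of all genes), with a median of -0.31, whereas the medians of the other nuclear chromosomes lay between -0.066 and 0.049. Among genes at 1 TPM or more, the change began between TRAM1 and LACTB2 on the long arm and ran to the last gene, C8orf33. Of 212 such genes in the stretch 172 (81.1%) were called lower and 7 higher, with a median of -0.66 and quartiles of -0.90 and -0.37. The 186 genes before it had a median of 0.060, with 45 called lower. The medians of the stretch in the 3 AGO1/2 knockout libraries were -0.62, -0.62 and -0.61 against the AGO2 knockout mean. In nuclear RNA the median of the stretch was -0.53, and in AGO1 knockout against wild-type cells it was 0.028. The position was chosen after the values were seen, and no test was made on it.

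The most abundant genes of the stretch that fell were those of ribosomal proteins and a signaling adaptor: RPL8 (1661 ± 58.4 to 948.6 ± 76.0 TPM, log2 fold change -0.63), RPL30 (-0.40), RPL7 (-0.64) and YWHAZ, a 14-3-3 protein (-0.33). MYC, FABP5, CYC1, MAL2, ZNF704 and ESRP1 lie in it as well. GRHL2, which was below 1 TPM in both lines, lies within the same bounds. AGO2 also lies in it and was 1 of the 7 genes that rose. On the log2 scale of TPM against wild-type cells, the median of the stretch was -1.05 in the AGO1/2 knockout and -0.93 in the AGO1/2/3 knockout, where other nuclear genes had -0.38 and -0.26, and it was -0.23 in the AGO2 knockout, where other genes had -0.20. The copy number of DNA was not measured here. Without the genes of chromosome 8 and of the mitochondrial genome 7691 of 16986 genes (45.3%) were called.

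**Figure D5:**
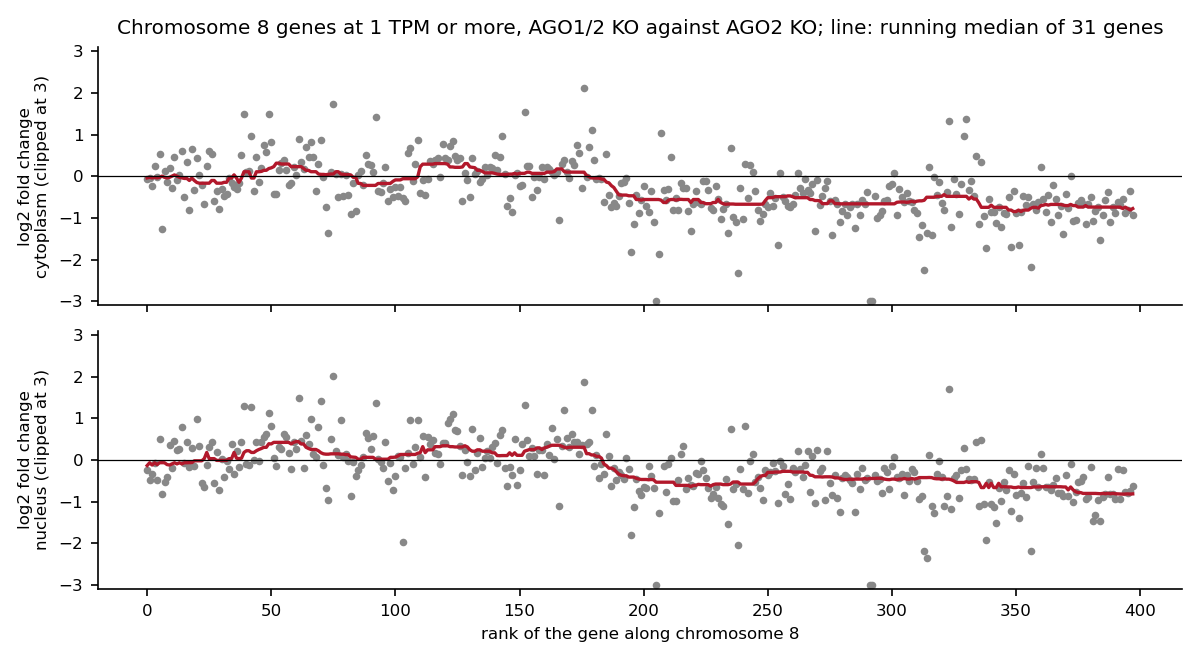
Log2 fold change, AGO1/2 against AGO2 knockout (vertical, clipped at 3), of chromosome 8 genes at 1 TPM or more in their order along the chromosome (horizontal, rank), in the cytoplasm (top) and the nucleus (bottom); the red line is a running median of 31 genes. From about the middle of the order to the end the line stays below 0 in both fractions, where the medians of the stretch are -0.66 and -0.53.

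The loss of AGO1 was compared with the same loss in cells that keep AGO2, which rests on other libraries. AGO1 knockout against wild-type cells gave 2185 calls (12.4%), of which 1330 were called in both comparisons, 566 in the same direction and 764 in opposite directions. The shared genes were 16.5% of the calls in AGO2 knockout cells and 60.9% of those in wild-type cells. Across 17605 genes, which are not independent replicates, the fold changes of the 2 comparisons had a Pearson's r of -0.03 and a Spearman's rho of -0.11. The difference between the effects, tested as an interaction in edgeR, was called for 6879 genes (39.1%), 3668 more positive and 3211 more negative in the AGO2-null cells. The difference for AGO1 itself did not pass the test (0.13, SE 0.09, edgeR adjusted p = 0.26), whereas AGO2 RNA differed by 0.97 and AGO4 RNA by 1.22. Wild-type and AGO1 knockout libraries also differ in passage (27 to 29 against 6 to 8), which cannot be told apart from their genotype.

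Most genes called in the cytoplasm were also called in nuclear RNA of the same lines. Of 18919 genes tested there, 10284 (54.4%) were called, 5228 higher and 5056 lower. Of 7898 genes called in the cytoplasm and tested in both fractions, 5574 (70.6%) were also called in the nucleus, 5153 in the same direction and 421 in the opposite one, and these are 58.5% of the nuclear calls among the shared genes. AGO1 had a log2 fold change of -2.06 in the nucleus and -3.36 in the cytoplasm, LMAN1 had -3.06 and -4.52, and RECQL had -2.52 and -4.08. The difference between the fractions was not tested. DCLK1, VIM, MAL2 and ADGRF1 had nuclear values of 12.46, 4.36, -6.71 and -6.22, beside 12.27, 3.80, -6.50 and -5.94 in the cytoplasm. For DCLK1 both fitted values rest on few reads in AGO2 knockout cells and are no bound.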

How the data were processed

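RNA was taken from the cytoplasmic and nuclear fractions of each line, ribosomal RNA was removed with Ribo-Zero and stranded paired-end libraries were sequenced. The submitters' processing notes name STAR 2.5.3a, Salmon 0.11.0 and hg38. The deposited files hold the authors' Salmon estimated counts per transcript (expected counts, which are split between transcripts that share reads) and the authors' TPM values. Of 200401 transcripts, 195887 matched GENCODE 44, with 58425 genes, and the 4514 without a match (2.23% to 2.51% of the estimated counts in the 6 libraries) were not used.

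Estimated counts were summed per gene, rounded and fitted with edgeR 4.0.16 in R 4.3.3 (TMM, filterByExpr with a minimum count of 10, quasi-likelihood test). All 15 cytoplasmic libraries entered 1 fit and the nuclear libraries another. Calls required a p no higher than 0.05 after Benjamini-Hochberg adjustment over all genes tested. Fold changes are edgeR's unless limma is named. TPM of a gene is the sum over its transcripts. The script was tested on simulated data. Alternatives were DESeq2 1.42.0, limma 3.58.1 on log2(TPM + 1) and log2(TPM + 0.1), RLE factors, counts scaled by transcript length, other filters, only the groups compared, the passage as a block, passages 9 and 10 only and each library left out. Seed matches were searched on the mRNA strand of 3′ UTRs of at least 30 nt.

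The members, gene lists and alternatives were chosen with earlier results of these data known. Genes were named by rule: the Argonautes, then, among called genes whose libraries did not overlap, the 8 largest rises and 8 largest falls at a mean of at least 5 TPM in the higher line, the 6 most abundant changes of at least 1 on the log2 scale in each direction, up to 4 called members of each list and up to 4 abundant called genes of a chromosome stretch. PRKRA, ARID4B, IGF2BP3, FHOD1, KRT8, KRT18 and members cited from another list were named after their values were seen. XIST and Y-linked genes are left out. Some members that the rule names are not reported here.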

Additional observations from a re-analysis of the deposited data

Results flagged for a closer look

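The effect of AGO1 loss in cells without AGO2 differed from its effect in cells with AGO2 for 76 of 87 named genes, by the interaction test in edgeR (adjusted p at most 0.05). Over all genes tested 39.1% had such a difference, but most named genes were chosen for a called change in AGO1/2 against AGO2 knockout cells, which is part of the interaction, so the share among them is set by that choice and nothing is read from it. The values below are the log2 fold change of AGO1/2 against AGO2 knockout cells minus that of AGO1 knockout against wild-type cells, with 3 libraries in each group. Among the Argonautes the difference was 0.97 for AGO2 and 1.22 for AGO4. For the genes that rose most it was 13.02 for DCLK1, 14.11 for TM4SF18, 6.92 for SLC2A3, 2.73 for VIM, 4.14 for RBM24, 4.31 for CLIC3, 3.17 for COL13A1 and 4.10 for TNFRSF6B. The values of DCLK1 and TM4SF18 rest on few reads in 1 or more lines and are no bounds. In the genes that fell most it was -8.50 for SLC1A3, -6.31 for ZNF704, -5.89 for MAL2, -5.99 for ADGRF1, -4.49 for LMAN1, -4.11 for RECQL, -3.47 for SOX4 and -1.54 for S100A14. Among the abundant genes the difference was 1.80 for MT-ND3, 1.91 for S100A10, 2.17 for TMSB4X, 1.01 for DCBLD2, 1.65 for ADIRF, 1.25 for S100A11, -1.40 for HSP90AB1, -2.00 for FABP5, -1.27 for EPCAM, -1.61 for MYC and -1.39 for CYC1. For silencing factors it was -1.27 for HSP90AA1, -0.91 for DIS3L2 and 0.55 for PRKRA. In classic microRNA targets it was -6.11 for IGF1R, 1.56 for IGF2BP1, 0.89 for HMGA2, 3.50 for SMAD7, 0.96 for ZBTB4, 1.03 for BMPR2, 0.84 for TGFBR2, -0.50 for ARID4B, 4.53 for TIMP3, 2.39 for RHOB and 0.56 for NFIB. Among mesenchymal and epithelial genes the difference was 4.84 for TGFB2, 3.59 for TWIST1, 1.46 for ZEB1, 0.65 for CFL2, -1.26 for CDH1, -1.72 for ESRP1, -1.47 for CLDN7, -0.68 for FHOD1, 0.45 for KRT8 and 0.47 for KRT18. For p53, interferon and replication genes it was -0.99 for XPC, -1.82 for DDB2, 1.32 for IFI6, -1.17 for MCM2, -1.21 for MCM5, -1.15 for MCM6 and -1.05 for MCM7. In Wnt, sterol, stress and ERK genes it was 2.01 for SP5, 2.70 for NOTUM, 0.84 for INSIG1, 0.84 for STARD4, 1.17 for DNAJB9, 1.7 for FOSL1 and 1.23 for CCND1. For OIP5-AS1 the difference was 0.98. Among mitochondrial and other-cell-type genes the difference was 1.15 for MT-ND4, 1.24 for MT-CO2, 7.95 for LYZ and 6.19 for PDGFRB. PDGFRB had 2 reads in AGO2 knockout cells and LYZ a mean of 0.0222 TPM, so these values are no bounds either. The call of PDGFRB in AGO1/2 against AGO2 knockout cells was lost on both TPM scales (limma adjusted p = 0.19 and 0.078). For the ribosomal protein and adaptor genes of chromosome 8 it was -0.82 for RPL8, -0.66 for RPL30, -0.90 for RPL7 and -0.27 for YWHAZ. YWHAZ fell in the cytoplasm (-0.33) and was higher in the nucleus (0.21, edgeR adjusted p = 0.022), and the difference between the fractions was not tested. Whether the differences follow from AGO2, from the individual lines or from passage cannot be told apart.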

How the results depend on the processing

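The count of genes changed by at least 1 on the log2 scale, 1718 in edgeR, was 1037 with a mean count of at least 50, 422 with limma on log2(TPM + 1) and 1123 on log2(TPM + 0.1), and the count of higher genes, 4063, was 2147 and 2201 on those scales. The cause was not tested, except that the filter leaves fewer genes to test. AGO3 reversed to -0.052 and -0.057 there and was called under neither. The other 94 counts over these and the remaining alternatives stayed within 1.5 times. The medians of seed sets and of chromosomes, recomputed under other settings, moved by more than the spread between libraries in 39 cases and by less in 31. On log2(TPM + 1) the list medians were 0.02 for interferon, 0.13 for mesenchymal, 0.11 for let-7, 0.24 for miR-17, 0.38 for Wnt and 0.15 for cholesterol genes. Leaving out 1 library gave 6949 to 7646 genes called, 3480 to 3815 higher, 3469 to 3831 lower and 1618 to 1776 changed by at least 1. It gave 6036 to 6948 calls for the interaction, 8984 to 10056 in the nucleus and -3.40 to -3.32 for AGO1. Of 99 genes traced through the alternatives, 84 kept their direction and their side of the threshold under all of them and 13 lost the call under at least 1.

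With the passage as a replicate block 6629 genes were called, 3298 higher and 3331 lower, and with passages 9 and 10 only 6827. The deviations from the line mean of libraries that share a passage number had correlations of -0.151 and -0.278. Deviations from a mean of few libraries are not independent, so these values cannot decide whether the shared numbers pair the samples. Libraries taken in order (AGO2 knockout 8, 9 and 10 with AGO1/2 knockout 9, 10 and 11) had 0.174, 0.106 and 0.317. The remaining pairs ran from -0.299 to 0.16. A block by that order was not tested. No second line per genotype is among the RNA-seq libraries, and reads of near-identical copies or overlapping genes limit single genes at any depth.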
